A study of Mus musculus with 12 samples.

Results

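Hprt, Pgk1, G6pdx, Pdha1 and Gla are X-linked genes for enzymes that nearly every cell needs. They were taken by name from the count tables, 5 of 22556 genes, of which 908 lie on the X chromosome. All 5 were counted in every library and passed the filter on low counts. ChrRNA, the RNA that stays with chromatin after nuclei are washed and that is rich in unspliced transcripts, was sequenced from iXist-ChrX cells, female mouse embryonic stem cells (mESCs) from a cross of 129S and Castaneus (Cast) mice. In every group the TetOn promoter stands in place of the promoter of the 129S Xist allele, so that doxycycline (Dox) turns on Xist, the RNA that silences the chromosome it coats, from the 129S X. WT cells carry no Xist deletion, XistDelA cells carry an Xist without the A-repeat, and XistDelm6A/T1_11C cells (11C from here on) carry an Xist without its 5′ m6A region. Each was taken without Dox (0 h) and after 24 h of Dox. There was 1 library per state for WT, 3 clones (C1, 2C2 and C11) for XistDelA and 2 replicates of the 11C line, 12 libraries and 6 pairs in all, the pairs of 11C being formed by replicate number alone. The libraries held 18893447 to 36007145 counts on genes (median 26552191), and 44.6 to 47.1% of them were assigned to a parental genome. The authors' methods call replicates biological, but the labels do not say that the 11C replicates come from separate cultures, and p there measures the spread between samples. 11C is a single line, WT has no replicate, and the deposited data of clone C11 carry another deletion designation than those of C1 and 2C2.

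The enzymes work in different routes. Hprt returns the bases hypoxanthine and guanine to the purine pool, Pgk1 makes ATP in glycolysis, G6pdx takes glucose 6-phosphate into the pentose phosphate pathway and yields NADPH, Pdha1 is the catalytic subunit of pyruvate dehydrogenase that links glycolysis to the mitochondrial citric acid cycle, and Gla is the lysosomal galactosidase that trims glycolipids. Female cells silence such genes on the inactive X, and females that carry a defective copy of Hprt or G6pdx are mosaics of cells with and without the enzyme. The comparison with the deletion lines asks how far each gene is silenced when Xist lacks the A-repeat or the m6A region.

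Xist itself was measured first. In CPM (the counts of a gene divided by the counts on all genes of its library, times 1000000), Xist went from 297 to 5514 in WT, from 124 to 1543, 126 to 1267 and 158 to 1600.0 in the XistDelA clones, and from 100.1 to 3139.6 and 85.6 to 4576 in 11C. Every library with Dox stood above every library without it, and the XistDelA clones with Dox stood below WT and both 11C replicates. The 129S genome was recognised as the one with nearly all allelic Xist counts (99.8%), so that this share is no result. What the different Xist levels contribute to the values of the enzymes was not tested. The 8 markers of mESCs summed to 1209 to 2112 CPM, led by Zfp42, the 8 markers of the fibroblast feeders, on which the cells were grown and from which they were separated by pre-plating, to 3.75 to 13.98, led by Col1a2, and the 6 of primitive endoderm to 32.7 to 66.1, led by Dab2. Of the mESC markers Sox2 alone had 0 counts in each library, the cause of which was not tested, up to 2 feeder markers were at 0 in a library, and each primitive endoderm marker was counted. The feeder and mESC sums were lowest in the 11C replicate 2 libraries (1317 CPM of mESC markers without Dox and 1209 with Dox). The primitive endoderm sum was 56.1 to 66.1 CPM in the 4 libraries of 11C against 32.7 to 51.5 in the other 8. Dab2 itself overlapped between them, at 27.8 to 36.2 CPM in 11C and 20.6 to 35.6 in the others. The feeder sum was 3.75 to 8.49 CPM in 11C against 8.77 to 13.98 in the others. The part of these cells in the results was not tested.

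The 5 genes are spread over the X. In the mm10 coordinates of the count tables Hprt lies at chrX:52988077-53021660 on the plus strand, 50.5 Mb before Xist, and G6pdx at chrX:74409485-74429161 on the minus strand, 29.1 Mb before it. Beyond Xist lie Pgk1 at chrX:106187099-106203699 (plus strand, 2.73 Mb), Gla at chrX:134588168-134601005 (minus strand, 31.1 Mb) and Pdha1 at chrX:160122218-160138336 (minus strand, 56.7 Mb). GENCODE lists each as protein coding, and counts were taken over the whole gene span, exons and introns together, by strand. G6pdx lies wholly within Ikbkg, which is read from the other strand, and the 3′ end of Pdha1 shares 1134 bases with Map3k15 on the other strand, so that only the use of strand keeps these counts apart. The retrogenes Pgk2, Pdha2 and G6pd2, intronless autosomal copies of members, held mean counts of 0.170, 13.9 and 0.170 per library, against 239 to 5148 counts for the members. Reads that spliced copies elsewhere share with the exons of Pgk1 could not be followed in these tables.

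The promoters of the 5 genes were set side by side, in the RefSeq sequences of GRCm38.p6 (the reference strain, neither 129S nor Cast), which held all 5. Whether they bear on the lower CPM of these genes with Dox in each pair was not tested. The 100 bases before the start are shown for the 3 genes whose window lies outside the GENCODE gene, with 4 motifs on either strand in capitals, namely GGGCGG, the box CCAAT, the motif TATAAA and the palindrome CACGTG. They read 5′ to 3′ along the gene, from chrX:52987978-52988077 (plus strand), chrX:106187000-106187099 (plus strand) and chrX:160138431-160138530 (minus strand).
Hprt: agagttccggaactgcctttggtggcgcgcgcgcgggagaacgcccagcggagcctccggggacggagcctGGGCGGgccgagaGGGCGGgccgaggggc
Pgk1: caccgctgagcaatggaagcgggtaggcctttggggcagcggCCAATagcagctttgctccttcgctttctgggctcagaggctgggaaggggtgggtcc
Pdha1: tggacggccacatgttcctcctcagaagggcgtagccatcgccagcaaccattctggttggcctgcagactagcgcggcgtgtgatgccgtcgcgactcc
For G6pdx and Gla the 100 bases before the start used here lie inside the GENCODE gene, and for G6pdx also inside the span given above. Their motif and CG counts below thus include bases within the gene. Over the 250 bases before the start, the GC box GGGCGG occurred 2 times at Hprt, 1 time each at Pgk1, G6pdx and Gla and 0 times at Pdha1, and 32.7% of 32851 promoter windows held at least 1. CCAAT occurred 1 time at Pgk1, 2 times at Gla and not in the windows of the other 3 genes, against 33.9% of all windows. TATAAA was in none of the 5 windows and in 12.4% of all. The palindrome CACGTG stood 2 times in the Gla window, in none of the other 4, and in 6.02% of all. None of these 4 motifs holds another. The windows held 14 to 17 CG pairs, against a median of 6 over all windows. At least as many CG pairs stood in 23.5% of all windows for Hprt and Pgk1, 27.3% for G6pdx and Pdha1 and 29.4% for Gla.

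Levels between genes were compared per kilobase of gene span. Over the 12 libraries the median was 7.07 CPM per kb for Pgk1 (2.47 to 14.4), 5.62 for Pdha1 (2.505 to 7.54), 4.30 for Hprt (2.66 to 5.04), 1.70 for Gla (0.608 to 3.12) and 1.48 for G6pdx (1.14 to 1.78). Each range, over all lines and states, overlapped the next in this order. Within libraries Hprt stood above Gla in each of the 12, Pgk1 above Pdha1 in 9, Pdha1 above Hprt in 10 and Gla above G6pdx in 7, so that Hprt and Gla alone are neighbours in a steady order. G6pdx had the narrowest range of the 5 in proportion to its level and Pgk1 the widest.

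**Figure D1:**
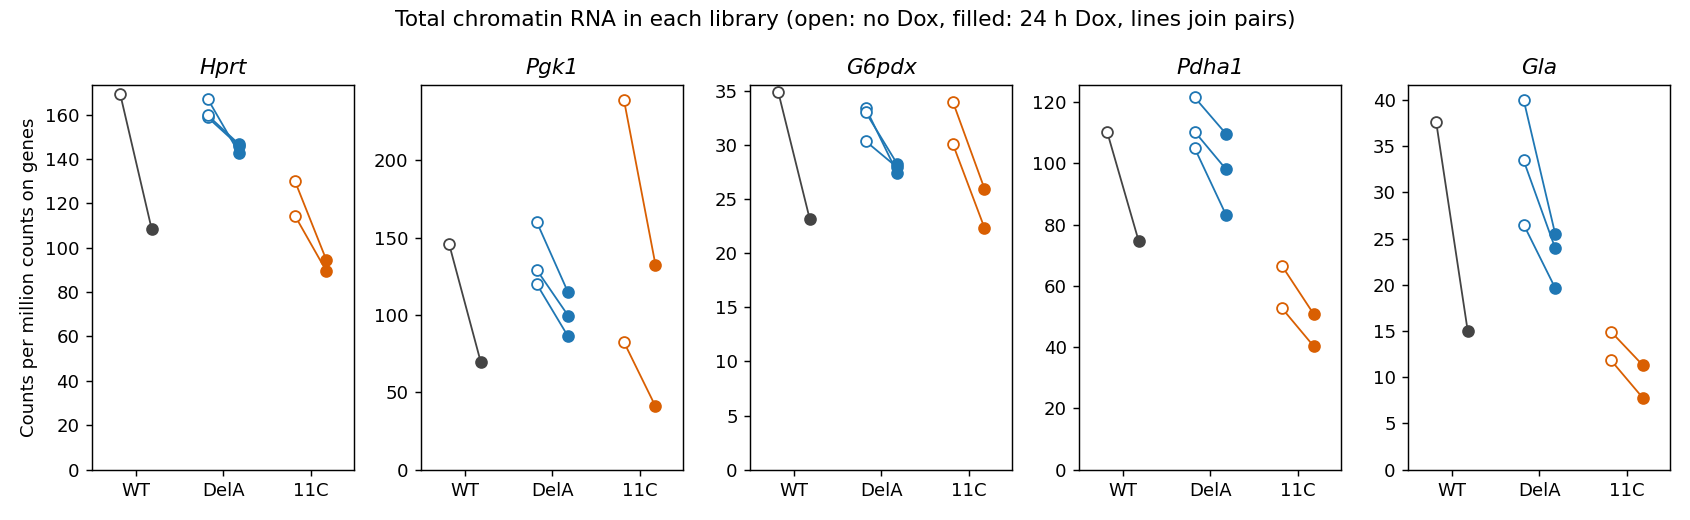
Total ChrRNA of each gene in every library, in CPM, where open points are libraries without Dox, filled points those after 24 h of Dox, and lines join the 2 libraries of a pair (DelA is XistDelA, 11C is XistDelm6A/T1_11C), each lower with Dox.

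Hprt, the gene of purine salvage, had a lower 129S share with Dox in WT and in both 11C replicates, and a share within 0.04 of the one without Dox in each XistDelA clone. In WT the 129S share of Hprt was 0.558 without Dox (Wilson 95% interval 0.537 to 0.579) and 0.348 with Dox (0.323 to 0.374). For clones C1, 2C2 and C11 of XistDelA it was 0.562, 0.541 and 0.567 without Dox and 0.541, 0.558 and 0.530 with Dox. For 11C it was 0.543 and 0.540 without Dox and 0.412 (0.386 to 0.439) and 0.467 (0.432 to 0.501) with Dox. Without Dox all 6 libraries stood above an even share, with Dox WT and both 11C replicates stood below it, and the XistDelA clones with Dox did not overlap those 3. The change was -0.210 (-0.243 to -0.177) in WT, with the Newcombe 95% interval in parentheses, -0.0207 (-0.0524 to 0.0111), 0.0165 (-0.0167 to 0.0497) and -0.0365 (-0.0685 to -0.00438) in clones C1, 2C2 and C11, and -0.130 (-0.170 to -0.0904) and -0.0732 (-0.120 to -0.0261) in 11C replicates 1 and 2. These intervals cover counting error only, and within XistDelA that of clone C11 lay below 0 while those of C1 and 2C2 held 0.

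The ratio of 129S to Cast Hprt counts was tested with edgeR across 13181 genes, each pair being its own block, and p-values are Benjamini-Hochberg adjusted over all of them. It fell in 11C by 0.61 on the log2 scale (SE 0.10, edgeR adjusted p = 7.92e-08, lower in 2 of 2 pairs). In XistDelA the log2 change was -0.08 (SE 0.06, edgeR adjusted p = 0.806, lower in 2 of 3 pairs). The test of the difference itself passed, at -0.53 (SE 0.11, edgeR adjusted p = 0.000625). The calls in 11C and of the difference were lost in edgeR without 11C replicate 1, at -0.42 and -0.34 (adjusted p = 0.161 and 0.488), and without the block (adjusted p = 0.0597 and 0.626). The XistDelA value moved to -0.17 without 2C2 and -0.016 without C11. Over all settings the edgeR adjusted p ranged from 2.13e-08 to 0.161 in 11C and from 0.000148 to 0.626 for the difference.

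Each allele set against all allelic counts of its library gave the larger Hprt change on the 129S X in WT and both 11C replicates. The log2 change of 129S counts was -1.38 in WT and -0.90 and -0.64 in 11C, while Cast counts changed by -0.13, -0.14 and -0.22. In clones C1, 2C2 and C11 the 129S counts changed by -0.21, -0.01 and -0.42, and the Cast counts by -0.09, -0.10 and -0.21. The Cast allele of Hprt was thus below its level without Dox in each of the 6 pairs, by less than the 129S allele in 5 of them.

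Total Hprt chromatin RNA stood at 169 CPM without Dox and 109 with Dox in WT. In XistDelA it stood at 159.7, 159 and 167 CPM without Dox in clones C1, 2C2 and C11 and at 147, 146 and 143 with Dox. The 11C replicates held 129.97 and 114 CPM without Dox and 94.3 and 89.4 with Dox. The states did not overlap within either deletion line, and the 11C libraries stood below all XistDelA libraries. Set against the median change of autosomal genes, the log2 change of total Hprt was -0.68 in WT, -0.15, -0.20 and -0.25 in the clones C1, 2C2 and C11, and -0.53 and -0.30 in 11C replicates 1 and 2. The edgeR fit of XistDelA gave -0.19 (SE 0.06, adjusted p = 0.27) without a block and -0.19 (SE 0.05, adjusted p = 0.00454) with the clone as a block, in a range of 0.00454 to 0.909 over all settings, and edgeR in 11C gave -0.41 (SE 0.19, adjusted p = 1). Without 11C replicate 1 the value of 11C was -0.27. In bulk RNA, fewer cells of a type and less RNA per cell cannot be told apart.

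**Figure D2:**
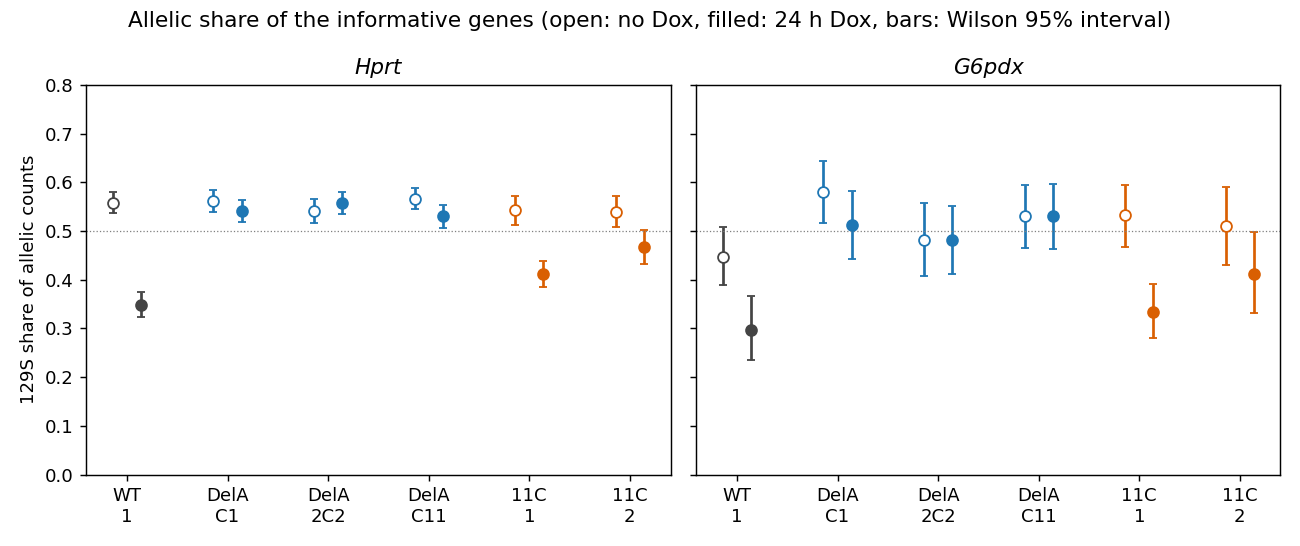
The 129S share of allelic counts of Hprt and G6pdx in every library, with Wilson 95% intervals (counting error only), open points without Dox and filled points after 24 h of Dox. The filled points of WT and 11C (XistDelm6A/T1_11C) lie below those of XistDelA (DelA) for both genes.

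G6pdx, the entry enzyme of the pentose phosphate pathway, had the same order of lines in its shares with Dox, with wider error. It had 131 to 279 allelic counts per library against 797 to 2126 for Hprt. Its most negative change was in 11C replicate 1, and that of Hprt in WT. In WT the 129S share of G6pdx was 0.448 without Dox (Wilson 95% interval 0.389 to 0.508) and 0.297 with Dox (0.235 to 0.367). For clones C1, 2C2 and C11 of XistDelA it was 0.581, 0.482 and 0.531 without Dox and 0.513, 0.481 and 0.531 with Dox. For 11C it was 0.532 and 0.510 without Dox and 0.333 (0.281 to 0.391) and 0.412 (0.332 to 0.498) with Dox. With Dox, WT and both 11C replicates again stood below the 3 XistDelA clones, and the shares without Dox overlapped between the deletion lines, with WT the lowest of the 6. The change was -0.151 (-0.237 to -0.0599) in WT, -0.199 (-0.281 to -0.113) and -0.0981 (-0.212 to 0.0194) in 11C, and -0.0681 (-0.161 to 0.0264), -0.000450 (-0.104 to 0.103) and 0.000130 (-0.0930 to 0.0931) in clones C1, 2C2 and C11. For 11C replicate 2 and for each clone the interval held 0, so no change was detectable there at this depth.

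In the same edgeR fit the 129S to Cast ratio of G6pdx fell in 11C by 0.96 on the log2 scale (SE 0.22, edgeR adjusted p = 0.00215, lower in 2 of 2 pairs). In XistDelA its change was -0.14 (SE 0.18, edgeR adjusted p = 0.915, lower in 2 of 3 pairs). The difference between the lines, -0.82 (SE 0.29), did not pass (edgeR adjusted p = 0.205). The call in 11C was lost in edgeR without 11C replicate 1, at -0.57 (adjusted p = 0.728), and without the block (adjusted p = 0.282), within a range of 0.00122 to 0.728 over all settings. Leaving out 11C replicate 1 moved the difference to -0.43, and the XistDelA value moved to -0.0008 without C1 and -0.21 without C11. On the 129S allele the log2 change of G6pdx was -1.19 in WT and -1.17 and -0.63 in 11C, and on the Cast allele it was -0.26, 0.01 and -0.06. In clones C1, 2C2 and C11 the 129S allele gave -0.53, -0.12 and -0.18 and the Cast allele -0.13, -0.12 and -0.19, so that C1 lay near 11C replicate 2.

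Total G6pdx chromatin RNA stood at 34.9 CPM without Dox and 23.2 with Dox in WT. In XistDelA it stood at 33.4, 30.4 and 33.0 CPM without Dox in clones C1, 2C2 and C11 and at 27.5, 27.9 and 28.3 with Dox. The 11C replicates held 33.97 and 30.1 CPM without Dox and 26.0 and 22.3 with Dox. Within each deletion line the states did not overlap, while the lines overlapped without Dox. Relative to the autosomal median the log2 change of total G6pdx was -0.63 in WT, -0.31, -0.20 and -0.24 in the clones C1, 2C2 and C11, and -0.45 and -0.37 in 11C replicates 1 and 2. The edgeR fit of XistDelA gave -0.24 (SE 0.08, adjusted p = 0.271) without a block and -0.24 (SE 0.07, adjusted p = 0.00914) with the clone as a block, in a range of 0.00914 to 0.909 over all settings, and edgeR in 11C gave -0.41 (SE 0.22, adjusted p = 1).

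**Figure D3:**
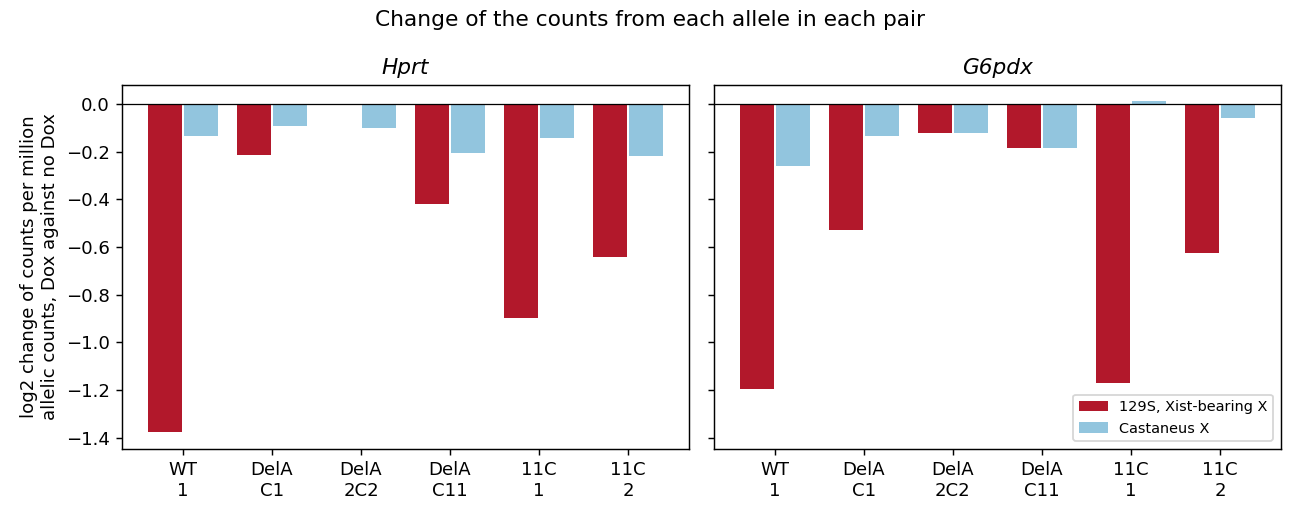
Log2 change with Dox of the counts from the 129S allele (dark bars) and the Cast allele (light bars) of Hprt and G6pdx, relative to all allelic counts of the library, in each of the 6 pairs. The 129S bar is longer than the Cast bar for both genes in WT, both 11C replicates and clone C1, and for Hprt in clone C11, while the G6pdx bars of 2C2 and C11 are nearly equal.

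The 129S to Cast ratio fell in 11C for each of the 4 nearest counted genes around Hprt and G6pdx. Phf6, a PHD finger protein whose gene starts 75.9 kb before Hprt, changed by -0.194 and -0.173 in the 11C replicates and by 0.0180, 0.00150 and -0.0516 in C1, 2C2 and C11, with a log2 ratio in 11C of -1.17 (SE 0.13, edgeR adjusted p = 2.88e-15). On the other side of Hprt, the noncoding C430049B03Rik gave -1.57 (SE 0.38, edgeR adjusted p = 0.00384). Ikbkg, the NF-kB regulator that spans G6pdx on the opposite strand, changed by -0.137 and -0.0935 in 11C and by -0.00630, -0.00290 and 0.00100 in the clones, with a log2 ratio in 11C of -0.70 (SE 0.12, edgeR adjusted p = 1.71e-06). Gab3, an adaptor of receptor signalling, gave -1.60 (SE 0.37, edgeR adjusted p = 0.00168). In XistDelA edgeR called 0 of the 4, 0 at an unadjusted p under 0.05 and 0 by its likelihood ratio test, where the lowest edgeR adjusted p among them was 0.837. In 11C the calls of C430049B03Rik, Ikbkg and Gab3 were lost without 11C replicate 1 (edgeR adjusted p = 0.562, 0.107 and 0.188), that of Gab3 also without replicate 2 (0.052), and the 3 were lost without the block (0.714, 0.0535 and 0.818), within ranges of 0.00257 to 0.714, 3.61e-07 to 0.107 and 0.000969 to 0.818. Phf6 passed in each setting (4.99e-18 to 0.00863).

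Calls of this kind were common on the X. With edgeR, 2 of the 2 informative members fell in 11C, against 1.55% of 13181 genes tested and 53.3% of 319 X-linked genes, so that such a call was common on the chromosome. In XistDelA 0 of the 2 fell, with 0 also at an unadjusted p under 0.05, against 0.448% of all genes and 5.33% of X-linked genes, and the edgeR likelihood ratio test also called 0 of 2. The difference between the lines was called for Hprt alone of the 2, against 1.06% of all genes and 39.5% of X-linked genes. Over the 319 X-linked genes the median share change was -0.199 in WT, -0.0170, -0.00697 and -0.0338 in C1, 2C2 and C11, and -0.154 and -0.124 in 11C replicates 1 and 2. In WT 145 of the 319 genes had a lower change than Hprt and 213 a lower change than G6pdx. In 11C replicate 1 these numbers were 192 and 106 of 319, and in replicate 2 they were 209 and 188 of 318 genes with allelic counts. Hprt was thus nearer to 0 than the median gene in both 11C pairs and past it in WT. In WT and 11C replicate 1 the counting interval of Hprt held the X-linked median, and in 11C replicate 2 it did not.

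As pair means, the share change of Hprt was -0.0135 ± 0.0272 in XistDelA (SD, n = 3) and -0.102 ± 0.0404 in 11C (SD, n = 2), and that of G6pdx -0.0228 ± 0.0392 in XistDelA (SD, n = 3) and -0.148 ± 0.0712 in 11C (SD, n = 2). For both genes the 2 lines did not overlap, and for 67.3% of 318 X-linked genes both 11C pairs lay below the 3 XistDelA pairs. The exact permutation test of the difference, counting both directions, gave p = 0.2 for each gene, the smallest value that 3 pairs against 2 allow.

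**Figure D4:**
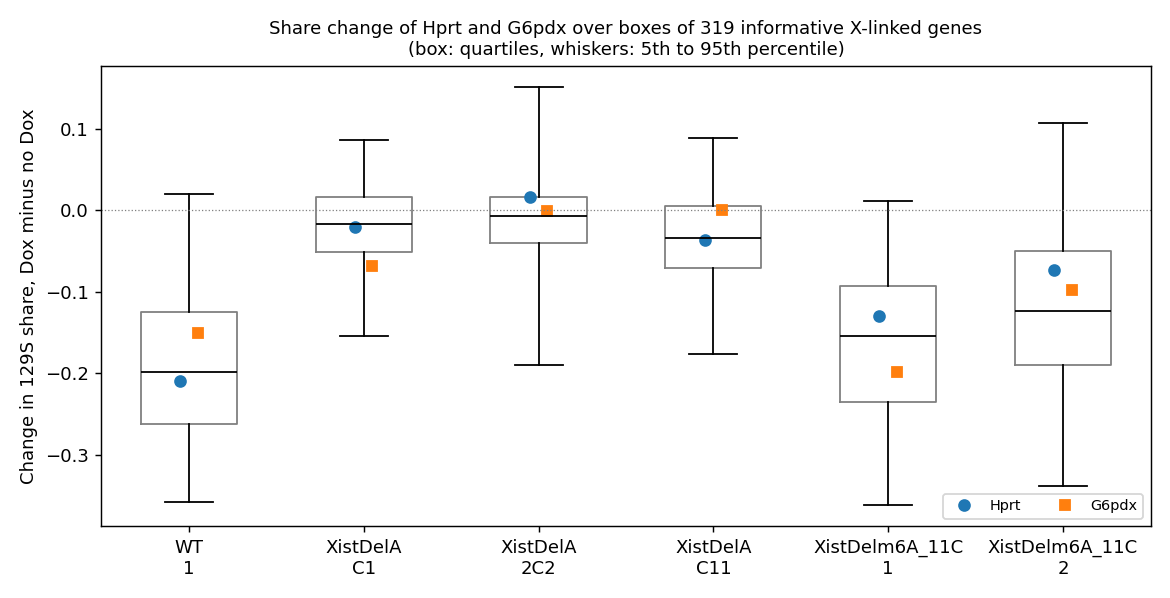
Change in the 129S share (Dox minus no Dox) of Hprt and G6pdx in the 6 pairs, over boxes of the 319 informative X-linked genes (quartiles, median line, whiskers at the 5th and 95th percentile). In 11C both genes lie within the whiskers, Hprt above the median line in both replicates.

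For Pgk1, Pdha1 and Gla few or no allelic counts were assigned to the 129S genome. In each of the 12 libraries, Dox or not, Pgk1 had a 129S share between 0.00278 and 0.0290 and Pdha1 between 0 and 0.0107, the latter 0 in 1 library with Dox of 11C replicate 2, where 0 of 161 counts allow up to 0.0233 (Wilson 95% interval). In WT the share of Pgk1 was 0.00517 without Dox (0.00250 to 0.0106, 7 of 1355 counts) and 0.0290 with Dox (0.0187 to 0.0449, 19 of 654), the higher with Dox, which was not tested further. Gla had 0 to 10 allelic counts per library. This held beyond these genes. Without Dox, the median share of the 177 X-linked genes beyond Xist that average 50 or more counts was 0.00651 in WT, against 0.507 for the 293 before it. Of the 319 informative X-linked genes 13 lie beyond Xist, among them Hnrnph2, next to Gla, with 129S shares of 0.670 to 0.882 over the 12 libraries. In WT its share was 0.848 without Dox and 0.868 with Dox, higher with Dox unlike in the other 5 pairs. Its 129S to Cast ratio gave -0.55 in 11C (SE 0.24, edgeR adjusted p = 0.445) and -0.24 in XistDelA (SE 0.19, edgeR adjusted p = 0.827). With next to no 129S counts of Pgk1 and Pdha1 even without Dox and few allelic counts of Gla, a loss of 129S share had next to no room to show, and only the totals of these 3 genes are compared.

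Pgk1, the ATP-forming kinase of glycolysis, was lower with Dox in each pair by more than most X-linked genes. Total Pgk1 chromatin RNA stood at 146 CPM without Dox and 69.9 with Dox in WT. In XistDelA it stood at 120.2, 129 and 160.4 CPM without Dox in clones C1, 2C2 and C11 and at 86.2, 99.7 and 115 with Dox. The 11C replicates held 239 and 82.4 CPM without Dox and 132 and 40.9 with Dox. The states did not overlap in XistDelA but did in 11C, whose replicates lay on either side of the XistDelA libraries of the same state, replicate 1 above and replicate 2 below. Relative to the autosomal median the log2 change was -1.10 in WT, -0.50, -0.46 and -0.50 in the clones C1, 2C2 and C11, and -0.92 and -0.95 in 11C replicates 1 and 2, so that the changes of the 11C replicates lay closer together than their levels. Of 470 X-linked genes, 23 had a more negative change than Pgk1 in WT, 34, 53 and 21 in the clones, and 85 and 38 in 11C. The edgeR fit of XistDelA gave -0.47 (SE 0.14, adjusted p = 0.236) without a block and -0.47 (SE 0.05, adjusted p = 3.86e-08) with the clone as a block, in a range of 3.86e-08 to 0.909 over all settings. In 11C edgeR without a block gave -0.93 (SE 0.60, adjusted p = 1). With the replicate number alone as a block the fall in 11C was called, as given below. The test of the difference between the lines gave -0.44 (SE 0.59, edgeR adjusted p = 1).

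Gla, the lysosomal galactosidase, had the most negative change of the 5 in WT and in clones 2C2 and C11. Total Gla chromatin RNA stood at 37.6 CPM without Dox and 15.0 with Dox in WT. In XistDelA it stood at 26.5, 33.5 and 40.0 CPM without Dox in clones C1, 2C2 and C11 and at 19.7, 24.0 and 25.6 with Dox. The 11C replicates held 11.8 and 14.9 CPM without Dox and 7.80 and 11.3 with Dox. The states did not overlap within either deletion line, and the 4 libraries of 11C stood below every library of XistDelA. Relative to the autosomal median the log2 change was -1.36 in WT, -0.45, -0.56 and -0.67 in the clones C1, 2C2 and C11, and -0.67 and -0.34 in 11C replicates 1 and 2, and 6 of 470 X-linked genes in WT, 49, 24 and 6 in the clones, and 197 and 264 in 11C were more negative. The edgeR fit of XistDelA gave -0.56 (SE 0.17, adjusted p = 0.241) without a block and -0.55 (SE 0.07, adjusted p = 1.08e-06) with the clone as a block, in a range of 1.08e-06 to 0.909 over all settings, and edgeR in 11C gave -0.47 (SE 0.36, adjusted p = 1). Its difference between the lines was 0.10 (SE 0.38, edgeR adjusted p = 1), positive where the other 4 are negative, and it turned to -0.11 without 11C replicate 2, with 0.25 without replicate 1 and 0.051 without clone C11. The value of 11C was -0.31 without replicate 1.

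Pdha1, the catalytic subunit of pyruvate dehydrogenase, lay nearer to 0 in its changes than Pgk1 in each pair. Total Pdha1 chromatin RNA stood at 110.2 CPM without Dox and 74.7 with Dox in WT. In XistDelA it stood at 105, 122 and 110.3 CPM without Dox in clones C1, 2C2 and C11 and at 83.1, 109.6 and 98.0 with Dox. The 11C replicates held 66.5 and 52.7 CPM without Dox and 50.9 and 40.4 with Dox. In XistDelA the states overlapped, clone 2C2 with Dox standing above C1 without it, whereas the states of 11C did not overlap and lay below all of XistDelA. Against the autosomal median the log2 change came to -0.60 in WT, -0.36, -0.23 and -0.19 in the clones C1, 2C2 and C11, and -0.45 and -0.33 in 11C replicates 1 and 2. The edgeR fit of XistDelA gave -0.24 (SE 0.12, adjusted p = 0.403) without a block and -0.25 (SE 0.05, adjusted p = 0.000667) with the clone as a block, in a range of 0.000667 to 0.909 over all settings, and edgeR in 11C gave -0.39 (SE 0.20, adjusted p = 1).

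Across the 5 genes, 30 of the 30 changes (5 genes in 6 pairs) were below 0, and so they were in CPM without centring, in TMM-scaled CPM and with a pseudocount of 5. Of 470 X-linked genes 461 were below 0 in WT, 300, 311 and 331 in C1, 2C2 and C11, and 457 and 438 in 11C. Over the 470 X-linked genes the median was -0.57 in WT, -0.09, -0.15 and -0.12 in C1, 2C2 and C11, and -0.61 and -0.39 in 11C. The members' median was -0.68 in WT, -0.36, -0.23 and -0.25 in the clones, and -0.53 and -0.34 in 11C, thus below the X-linked median in WT and the 3 clones and above it in both 11C replicates. Without a block, edgeR called 0 of the 5 in XistDelA, in 11C or in the difference, against 0.0202%, 0% and 0% of all genes tested, while 4, 0 and 0 of the 5 had an unadjusted p under 0.05. DESeq2 also called 0 of the 5 in each. With the clone as a block, which pairs libraries of the same cell line, edgeR called 5 of 5 lower in XistDelA. That background was 14.9% of 14866 genes lower and 14.8% higher, and 31.5% of 590 X-linked genes lower. The differences between the lines were -0.21 (SE 0.16, edgeR adjusted p = 1) for Hprt, -0.16 (SE 0.17, edgeR adjusted p = 1) for G6pdx and -0.13 (SE 0.21, edgeR adjusted p = 1) for Pdha1. Without 11C replicate 1 or 2 they moved to -0.085 or -0.35 for Hprt and -0.058 or -0.22 for Pdha1.

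**Figure D5:**
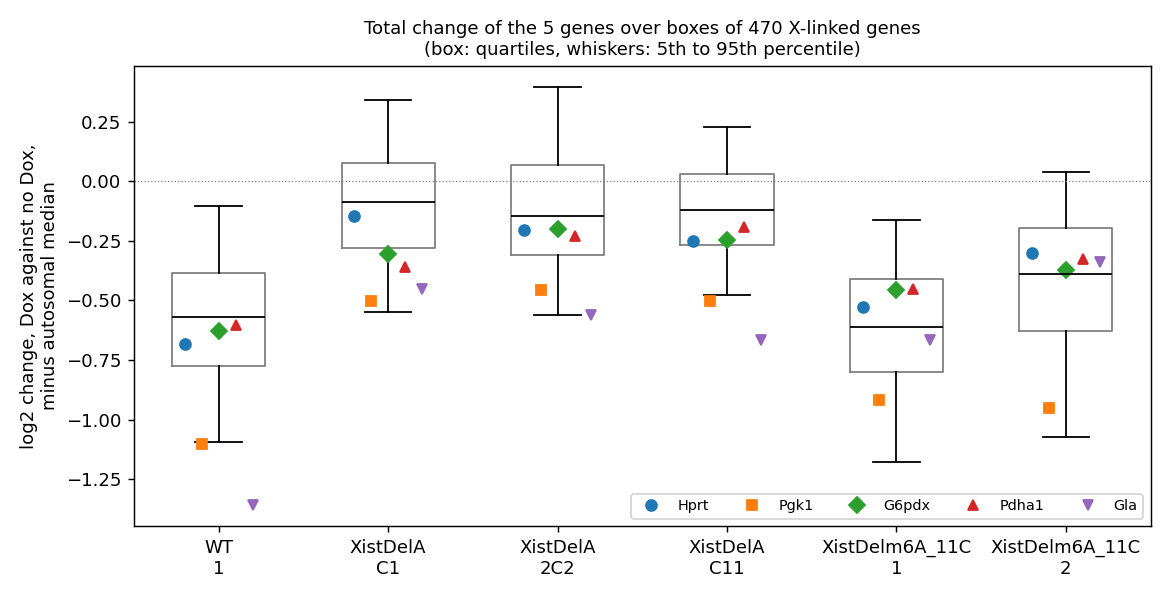
Log2 change of total counts with Dox, minus the autosomal median, of the 5 genes in each pair, over boxes of 470 X-linked genes (quartiles, median line, whiskers at the 5th and 95th percentile). Gla and Pgk1 lie lowest of the 5 in WT and the XistDelA clones, and Pgk1 alone lies lowest in both 11C pairs.

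Of the 6 genes next to Pgk1, Gla and Pdha1, edgeR without a block called 0 in either line (2 in XistDelA and 3 in 11C at an unadjusted p under 0.05, and 0 by DESeq2). Taf9b, a TFIID-related factor next to Pgk1, had log2 changes of -1.12 in the WT pair relative to autosomes, -0.35 in the XistDelA fit and -1.13 in the 11C fit, and the copper transporter Atp7a on the other side -0.72, -0.21 and -0.52. Beside Gla, the ribosomal protein gene Rpl36a had -0.43, -0.17 and -0.61 and the RNA-binding protein gene Hnrnph2 -0.79, -0.29 and -0.52. Around Pdha1, the kinase gene Map3k15 gave -0.50, 0.16 and -0.59 and the receptor gene Gpr64 -0.69, -0.41 and -0.88. Without 11C replicate 1 the 11C value was -1.20 for Rpl36a, -0.20 for Hnrnph2 and -0.34 for Atp7a, and without replicate 2 it was -0.23 for Rpl36a. In XistDelA Taf9b had -0.18 without C1, and Rpl36a -0.079 without 2C2 and -0.31 without C11, the clone whose own change of Rpl36a relative to autosomes was 0.068. Map3k15 was the one of these 6 with a positive value in XistDelA. With the clone as a block edgeR called 5 of the 6 there, lower for Hnrnph2 (adjusted p = 0.00043), Atp7a (0.00145), Gpr64 (0.00549) and Rpl36a (0.0368) and higher for Map3k15 (0.00955). Over all settings these values ranged up to those of edgeR without clone 2C2 and without a block, 0.909 for Hnrnph2 and Gpr64, 0.922 for Atp7a, 0.978 for Rpl36a and 0.968 for Map3k15.

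The 11C line differed from the others before any Dox. Hprt, Pdha1 and Gla, 3 of the 5, were lower in both 11C libraries without Dox than in WT and the 3 clones, as were 22.7% of 12283 genes averaging 50 or more counts. The summed primitive endoderm markers were higher in the same libraries, 66.0 and 56.1 CPM against at most 48.7 in the others without Dox. Dab2, the most abundant of them, was not, at 27.8 and 30.1 CPM against 20.6 to 34.6. The mean log2 level in 11C minus that in XistDelA was -1.31 for Gla, -0.92 for Pdha1, -0.41 for Hprt, -0.01 for G6pdx and 0.05 for Pgk1, against a median of 0.09 over autosomal genes, -0.01 over X-linked genes before Xist and -0.18 over those beyond it. This difference of untreated lines was not tested, and with 1 line of 11C the deletion and the line cannot be told apart.

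Other X-linked metabolic enzymes were read in the same way. Of 30 listed, 29 were found by their symbol, and 16 of these were informative for the allelic share. Gk, the glycerol kinase gene, was counted under the symbol Gyk and so was left out of the list values. Its share changes were -0.233 and -0.210 in the 11C replicates and 0.0169, 0.00219 and -0.0375 in C1, 2C2 and C11. In 11C the 129S to Cast ratio fell for 8 of the 16 and rose for 0, with a median log2 change of -0.53 against -0.85 for all X-linked genes, of which 53.3% fell. Phka1, a subunit of phosphorylase kinase in glycogen breakdown, had share changes of -0.259 and -0.272 and a log2 ratio of -1.74 (SE 0.11, edgeR adjusted p = 4.5e-40). Pdk3, a kinase that switches off the Pdha1 subunit, had -0.263 and -0.181 and -1.34 (SE 0.09, edgeR adjusted p = 1.03e-32). For Ids, a lysosomal sulfatase, the values were -0.155 and -0.247 and -1.23 (SE 0.18, edgeR adjusted p = 8.79e-09), and for the lysosomal membrane protein Lamp2 -0.171 and -0.0919 and -0.79 (SE 0.08, edgeR adjusted p = 4.75e-16). In XistDelA Ids was the single one of the 16 called, at -0.29 (SE 0.08, edgeR adjusted p = 0.0351). The difference between the lines passed for 6 of the 16. The Ids call in XistDelA was lost without clone 2C2 (edgeR adjusted p = 0.155), without clone C11 (0.678) and without the block (1), over a range of 0.0203 to 1. Phka1, Pdk3, Ids, Lamp2, Maoa and Ogt passed in 11C in each setting. The calls of the other 2 of the 8, named after their values were seen, were lost in edgeR without the block (adjusted p = 0.609 for Atp6ap2 and 0.406 for Nsdhl), and that of Atp6ap2 also without 11C replicate 1 (0.634), without replicate 2 (0.102) and with each line fitted alone (0.0746), in ranges of 0.0249 to 0.634 and 1.36e-06 to 0.406. Alg13, of N-glycan assembly, had the highest mean count of the list (21699.8 per library), lies beyond Xist and was not informative.

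Of the 60 autosomal partners of the enzymes, edgeR without a block called 0 in total counts in XistDelA, 11C or the difference, with 9, 0 and 1 at an unadjusted p under 0.05, and DESeq2 called 4, 0 and 0, in XistDelA Rpe, Ldha, Aldoa and Pkm. In allelic counts edgeR called 0 of 58, with 6, 2 and 5 at an unadjusted p under 0.05 and 0 by its likelihood ratio test. In total counts with the clone as a block, the fit of XistDelA called partners in each pathway. The medians below are from the fits without a block. For glycolysis it called 8 lower and 2 higher of 15. Ldha, which turns pyruvate into lactate, fell by 0.51 (SE 0.06, edgeR adjusted p = 3.07e-07), Tpi1 by 0.49 (SE 0.08, edgeR adjusted p = 1.76e-05) and Aldoa by 0.43 (SE 0.06, edgeR adjusted p = 7.94e-07), while Ldhb rose by 0.56 (SE 0.07, edgeR adjusted p = 1.38e-06). The median over glycolysis genes was -0.19 in XistDelA and -0.21 in 11C, against 0.01 and -0.0012 over all genes. Purine genes numbered 6 lower and 0 higher of 15 with medians of -0.20 in XistDelA and -0.03 in 11C, led by Adss at -0.29 (SE 0.05, edgeR adjusted p = 5.27e-05) and Paics at -0.28 (SE 0.05, edgeR adjusted p = 8.03e-05), both of purine synthesis. In the pentose phosphate pathway there were 3 lower and 1 higher of 7, with Rpe at -0.34 (SE 0.05, edgeR adjusted p = 2.08e-06) and medians of -0.15 in XistDelA and 0.05 in 11C. For the pyruvate dehydrogenase complex and its regulators there were 2 lower and 1 higher of 11, with the phosphatase Pdp1 at -0.45 (SE 0.11, edgeR adjusted p = 0.00202) and medians of -0.07 in XistDelA and 0.05 in 11C. Lysosomal glycolipid genes numbered 4 lower and 0 higher of 12, with the activator Gm2a at -0.41 (SE 0.12, edgeR adjusted p = 0.00911) and medians of -0.16 in XistDelA and 0.01 in 11C. The 11C replicates had medians of opposite sign in 4 of these 5 lists. Set against the autosomal median, the list medians of the pair changes in replicates 1 and 2 were 0.021 and -0.44 for glycolysis, 0.25 and -0.26 for the pentose phosphate pathway, 0.052 and -0.19 for lysosomal genes, 0.032 and -0.02 for purine genes and -0.0085 and -0.064 for the pyruvate dehydrogenase complex. Highest in mean count were Adk (11331 counts per library), Pkm (20470.4), Rpe (6177), Asah1 (3655) and Pdk1 (2698). Over all settings the adjusted p of each of the 9 genes with a p above ranged from that value up to the edgeR value without clone 2C2 and without a block, which was 0.909 for Ldha, Aldoa, Adss, Rpe and Pdp1, 0.922 for Paics and Gm2a, 0.915 for Ldhb and 0.957 for Tpi1. Among all genes in that fit 14.9% were lower and 14.8% higher.

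The genes whose log2 CPM ran most like Pdha1, Gla, G6pdx and Pgk1 over the 12 libraries, among 12283 genes, included 5 on the X among the 8 named. By Pearson correlation, given as a description over libraries that share lines and Dox states, they were Arxes2 (0.98) and Tmem47 (0.98) for Pdha1, Timm8a1 (0.97) and Thumpd1 (0.97) for Gla, Gpr143 (0.91) and Tsix (0.89) for G6pdx and Rdh11 (0.94) and Calca (0.94) for Pgk1. Both matches of Pgk1 and Thumpd1 are autosomal. Between members the values ranged from 0.93 for Hprt with Pdha1 to 0.29 for Pgk1 with Gla.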

How the data were processed

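The authors deposited unnormalised counts of read pairs per gene on mm10 for 12 libraries of paired reads of 81 bases, in all and for each parental genome. Per the labels Bowtie2 2.3.2, STAR 2.4.2a, SAMtools, bedtools and featureCounts made them. The 129S genome was told from Castaneus by the allelic Xist counts. Totals were tested with edgeR 4.0.16 (quasi-likelihood, TMM, filterByExpr with a minimum count of 10) in R 4.3.3, without a block, and with Benjamini-Hochberg adjustment over all genes at a threshold of 0.05. Allelic counts were tested with edgeR on both allelic counts of each of the 10 libraries of the deletion lines, with a term per library and an allele term per pair, over genes averaging 10 or more allelic counts whose mean 129S share without Dox was 0.1 to 0.9. Log2 changes used a pseudocount of 0.5 and the median of autosomal genes averaging 50 or more counts. Both fits were tested on simulated data. The XistDelA pairing comes from the clone names in the labels. It was checked by correlating the deviations of each library from the mean of its state, which gave r of 0.64 for C1, 0.41 for 2C2 and 0.57 for C11 and negative values between clones. The deviations cancel out within a state, so that positive values within clones make those between clones negative on balance. The negative values are thus no separate check. The share change of the clones and of the 11C replicates was compared by an exact permutation test (SciPy 1.17.1), and figures were drawn with matplotlib 3.10.9.

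Alternatives were DESeq2 1.42.0 and its size factors, other count filters, a replicate block or none, all libraries in 1 fit, each line alone, a likelihood ratio test, other scalings and pseudocounts, a correction for assignment bias, and leaving out each replicate. WT entered only the fit of all libraries, and no change within WT was tested. Named were the 5 members, Xist, the nearest counted gene on each side of each member, the 2 genes most correlated with it (not given for Hprt), and from each list at most 4 genes that passed a test and moved the same way in every pair, with the gene of highest mean count. Members and lists were chosen with earlier results of these data known.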

Additional observations from a re-analysis of the deposited data

Results flagged for a closer look

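The change with Dox in the ratio of 129S to Cast counts differed between 11C and XistDelA, by the edgeR test of the difference itself, for 10 of the genes named. The change in 11C was the lower in each. Among all X-linked genes in the fit, 39.5% of 319 had such a call. Of the members and their neighbours in that fit, those that did not pass were G6pdx (-0.82, edgeR adjusted p = 0.205), C430049B03Rik (-1.25, 0.278), Hnrnph2 (-0.31, 0.894). Of the 16 other X-linked enzymes in it 10 did not pass, nor did any of the 58 autosomal partners. The log2 difference was -0.53 (SE 0.11, edgeR adjusted p = 0.000625) for Hprt. Among other X-linked enzymes it was -1.52 (SE 0.13, edgeR adjusted p = 5.49e-23) for Phka1, -1.2 (SE 0.11, edgeR adjusted p = 1.05e-19) for Pdk3 and -0.94 (SE 0.20, edgeR adjusted p = 0.000439) for Ids. It was -0.68 (SE 0.11, edgeR adjusted p = 2.08e-07) for Lamp2, -0.54 (SE 0.09, edgeR adjusted p = 2.06e-06) for Maoa, which breaks down monoamines, and -0.39 (SE 0.07, edgeR adjusted p = 3.66e-06) for Ogt, which adds N-acetylglucosamine to proteins. Next to the members it was -1.1 (SE 0.15, edgeR adjusted p = 2.65e-10) for Phf6, -0.69 (SE 0.15, edgeR adjusted p = 0.00109) for Ikbkg and -1.64 (SE 0.45, edgeR adjusted p = 0.0329) for Gab3.

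Without 11C replicate 1 the edgeR adjusted p was 0.488 for Hprt (log2 -0.34), 0.104 for Lamp2 (log2 -0.43), 0.0852 for Ogt, 0.283 for Ikbkg and 0.293 for Gab3. Without 11C replicate 2 it was 0.236 for Ids and 0.177 for Gab3, and for Gab3 it was 0.302 without clone 2C2 and 0.189 without C11. Without the replicate block, Phka1 alone of the 10 stayed under the threshold (edgeR adjusted p = 0.0217), and the others ran from 0.0518 to 1. The range over all settings was 0.000148 to 0.626 for Hprt, 5.64e-29 to 0.0217 for Phka1, 3.94e-24 to 0.0518 for Pdk3, 0.000171 to 0.236 for Ids, 8.86e-10 to 0.522 for Lamp2, 2.06e-06 to 0.0816 for Maoa, 4.27e-07 to 0.339 for Ogt, 1.03e-11 to 0.105 for Phf6, 0.00052 to 0.358 for Ikbkg and 0.00373 to 1 for Gab3. Maoa and Ogt were named after their values were seen. Whether the lines differ through the deletion was not tested.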

How the results depend on the processing

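Over the settings, 40 values of the 5 members' total change in XistDelA stayed on their side of the threshold and 5 passed it (clone block), and in 11C 39 stayed and 1 passed. For Hprt and G6pdx 16 allelic values in XistDelA stayed, and in 11C 10 stayed and 4 lost the call. The members kept their direction in each test under each alternative run, except that the total difference of Gla between the lines went to -0.11 without 11C replicate 2 (range -0.11 to 0.25). Genes called in total counts by edgeR in XistDelA, 3 without a block, numbered 421 with DESeq2, 4410 with the clone as block and 0 to 2 without a clone. In 11C the 0 calls of edgeR (173 at an unadjusted p under 0.05) became 2 with no count filter, 3 with DESeq2, 237 with the number as block, 2 in a fit of 12 libraries and 1 without either replicate. The difference had 0 calls by edgeR (233 at an unadjusted p under 0.05), 2 with DESeq2 and 117 with the block. In allelic counts XistDelA had 97 calls, 0 without the block (440 at an unadjusted p under 0.05) and 35 to 54 without a clone. 11C had 228, 88 without the block, and 130 without replicate 1 or 184 without replicate 2. The difference had 154, 30 without the block and 89 to 140 without a replicate. The mean total change of Pgk1 was -0.45 in XistDelA for CPM not centred and -0.90 in 11C for TMM-scaled CPM not centred. With no limit on the share without Dox, the median share change over X-linked genes was -0.110 in WT, -0.0017 in XistDelA and -0.0606 in 11C. The 12 share changes of Hprt and G6pdx moved by less than their 95% counting intervals when corrected for assignment bias. Where 1 11C replicate was left out, the lone pair was assumed to vary like the other groups, and a fit of each line alone gives no difference. The 11C samples share only a number, which the allelic fit uses as a block and the fit of totals without a block does not, and the deviations of equal numbers correlated at 0.71. With the number as block, Pgk1 fell in 11C by 0.93 on the log2 scale (edgeR adjusted p = 1.07e-05, range 1.07e-05 to 1). Of the 6 genes next to Pgk1, Pdha1 and Gla the number as block called 4 in 11C in total counts, and without a block edgeR called 0 (3 at an unadjusted p under 0.05, and 0 by DESeq2). The cause was not tested. Depth limits the share of G6pdx, whose intervals are wider than those of Hprt, while Gla, with 239 to 1044 counts but 0 to 10 allelic counts per library, has no share to follow for a reason that was not tested.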

Other observations

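The 11C replicates differed in genes of glycolysis. The log2 ratio of CPM in replicate 1 to replicate 2 had a median over 14 glycolysis genes of 0.43 without Dox and 1.11 with Dox, against 0.12 and 0.28 over 12283 genes that average 50 or more. Pgk1 had 1.53 and 1.69, Ldha 0.71 and 2.11, and Hk1, the first kinase of glycolysis, -0.79 and -0.54. Over 7 genes of the pentose phosphate pathway the medians were 0.18 and 1.04, and over 15 purine genes 0.13 and 0.28. The 8 mESC markers summed to 1708 and 1317 CPM in replicates 1 and 2 without Dox and to 2112 and 1209 with Dox, also higher in replicate 1. These are values of single libraries with no test. Ldha and Hk1 were chosen after their values were seen.

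In total counts with the clone as a block, edgeR called 13 lower and 3 higher of the 29 other X-linked enzymes in XistDelA. Without a block it called 0 (13 at an unadjusted p under 0.05), and DESeq2 called 4 (Maoa, Acsl4, Sat1 and Hccs, of which Acsl4 is named after its value was seen). Sat1, which acetylates polyamines, fell by 0.68 (SE 0.07, edgeR adjusted p = 1.78e-08), Renbp by 0.49 (SE 0.06, edgeR adjusted p = 9.77e-07), the complex I subunit Ndufa1 by 0.48 (SE 0.12, edgeR adjusted p = 0.00293) and Hccs, which attaches haem to cytochrome c, by 0.46 (SE 0.06, edgeR adjusted p = 4.94e-07). Over all settings the adjusted p ranged from that value up to the edgeR value without clone 2C2 and without a block, which was 0.909 for Sat1, Ndufa1 and Hccs and 0.913 for Renbp. Among all X-linked genes 31.5% were lower in that fit. These 4 go beyond the 4 genes per list that the rule allows and were named after their values were seen.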
